A study of Mus musculus with 12 samples.

Results

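The microtubule motors of the newborn mouse retina were examined across RNA-seq libraries of retinal ganglion cells (RGCs, the neurons whose axons form the optic nerve) and of the other retinal cells (non-RGCs). Members were all genes named as a kinesin heavy chain (Kif or Kifc), the kinesin-associated protein Kifap3, a kinesin light chain (Klc), a heavy, intermediate or light intermediate chain of cytoplasmic dynein (Dync1, Dync2) or a dynactin subunit (Dctn1 to Dctn6), which gave 59 of the 38720 genes listed. They were sorted by known role into 13 mitotic kinesins, 13 kinesin subunits of axonal transport, 5 subunits of cytoplasmic dynein 1, 6 dynactin subunits, 9 motors of cilia and 13 others. Retinas came from C57/BL6 pups at P0, the day of birth. In the mKO groups a Cre recombinase knocked into the Math5 (Atoh7) locus, which is active in newborn RGCs and their precursors, deletes the loxP-flanked exons of Ezh2 that encode the catalytic SET domain, and the WT groups serve as controls. Retinas were dissociated and RGCs were captured with magnetic beads against the surface protein Thy-1 (CD90), while the uncaptured cells formed the non-RGC groups. Each of the 4 groups (mKO RGC, WT RGC, mKO non-RGC and WT non-RGC) had 3 libraries from independent RNA extractions, 12 in all. Math5-Cre acts in only a portion of RGCs, so mKO RGCs are a mixture of deleted and undeleted cells.

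Kinesins are motor proteins that hydrolyse ATP to walk along microtubules, mostly towards the plus end. In axons, where plus ends point away from the cell body, kinesin-1, kinesin-2 and kinesin-3 carry vesicles, mitochondria and cytoskeletal parts outwards, and cytoplasmic dynein with its cofactor dynactin carries signalling endosomes and worn organelles back. A separate set of kinesins builds the mitotic spindle, aligns chromosomes and completes cytokinesis in dividing cells. RGCs are born before birth and no longer divide, whereas the retina of a newborn mouse still holds dividing progenitors.

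Reads on genes ranged from 7139633 to 12828281 in mKO non-RGC, from 11100177 to 12157900 in WT non-RGC, from 12391602 to 13014004 in mKO RGC and from 10600964 to 12328717 in WT RGC. Within a group the deepest library is called A, the next B and the shallowest C. Thy1, the gene of the capture antigen, had normalised read counts of 2394, 2519 and 2208 in WT RGC, 1425, 1426 and 1422 in mKO RGC, 4.51, 1.94 and 9.38 in WT non-RGC and 67.0, 79.6 and 93.2 in mKO non-RGC. All 12 RGC markers examined were higher in WT RGCs than in WT non-RGCs, so the capture went with the labels, although 10 of these 12 were lower in mKO than in WT RGCs and 8 of 12 were higher in mKO than in WT non-RGCs. Ezh2 counts over the whole gene were 1190, 1206 and 1678 in WT RGC and 1354, 1476 and 1443 in mKO RGC (log2 fold change 0.09 ± 0.13 SE, adjusted p = 0.637), and since exons outside the deletion are counted too, this value does not test the deletion. WT RGC library C stood apart from libraries A and B: 12 markers of cycling progenitors summed to 2106 RPM there (raw reads scaled to a common library total, the CPM scale) against 1247 and 1311, and 8 photoreceptor markers to 884 against 618 and 626. The main list counts that rest on it are given with and without it, and folds of single genes include it unless stated.

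Promoter windows are shown for the mitotic kinesins because these genes differed together between the cell fractions. RefSeq windows (GRCm38.p6, from 250 bases before to 50 after the transcription start) were matched to 46 of the 59 members, and were searched for TTTGAA on both strands, which is also read as TTCAAA. This hexamer is the core of the cell cycle genes homology region (CHR), an element of many promoters that are active in dividing cells. It was found in 11 of 12 windows of mitotic kinesins (91.7%), in 1 of 11 windows of axonal transport kinesins (9.09%, the window of Kif1a) and in 17.9% of all 32851 windows. Within the 90 bases from 60 before to 30 after the start, 1 of 11 axonal transport windows held it (9.09%, again Kif1a). Of the mitotic windows 8 of 12 held it there (66.7%), against 4.62% of all windows. The sequences of these 8 are given below from 5′ to 3′ with the hexamer in capitals, followed by those of 2 axonal transport kinesins that lack it.
Kif11, chr19:37376322-37376411, plus strand: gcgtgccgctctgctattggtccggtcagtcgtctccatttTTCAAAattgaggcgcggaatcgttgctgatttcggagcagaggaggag
Kif15, chr9:122951021-122951110, plus strand: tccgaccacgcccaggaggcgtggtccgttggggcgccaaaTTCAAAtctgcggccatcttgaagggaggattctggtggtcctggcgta
Kif22, chr7:127042391-127042480, minus strand: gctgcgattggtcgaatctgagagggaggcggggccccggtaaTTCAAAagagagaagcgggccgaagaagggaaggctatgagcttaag
Kif23, chr9:61946770-61946859, minus strand: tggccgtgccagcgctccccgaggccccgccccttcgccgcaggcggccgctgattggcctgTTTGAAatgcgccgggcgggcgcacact
Kif18b, chr11:102925095-102925184, minus strand: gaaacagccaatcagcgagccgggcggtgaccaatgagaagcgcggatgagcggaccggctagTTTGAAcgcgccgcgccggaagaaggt
Kif20b, chr19:34922298-34922387, plus strand: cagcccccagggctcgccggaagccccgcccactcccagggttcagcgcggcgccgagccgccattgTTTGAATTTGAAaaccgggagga
Kif4, chrX:100626005-100626094, plus strand: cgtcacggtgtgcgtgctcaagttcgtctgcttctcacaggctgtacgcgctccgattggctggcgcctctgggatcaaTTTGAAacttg
Kifc1, chr17:33890604-33890693, minus strand: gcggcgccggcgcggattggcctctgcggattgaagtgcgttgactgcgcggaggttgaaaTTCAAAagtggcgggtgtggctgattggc
Kif3c, chr12:3365072-3365161, plus strand: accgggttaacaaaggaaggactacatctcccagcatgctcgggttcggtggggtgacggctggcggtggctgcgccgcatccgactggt
Kif5c, chr2:49619226-49619315, plus strand: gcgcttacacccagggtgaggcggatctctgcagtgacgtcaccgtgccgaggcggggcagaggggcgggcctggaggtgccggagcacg

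The hexamer began 19 bases before the start in Kif11 and Kif15 and 17 before it in Kif22, while in Kifc1, Kif23 and Kif18b it began at bases 2, 3 and 4 of the transcript. Kif20b held 2 adjoining copies, which began at bases 8 and 14. In Kif2c, Kif14 and Kifc5b it lay outside the printed part. Kif18a and Kif20a had no match. A window was available for only 12 of the 13 mitotic kinesins, so either Kif18a or Kif20a was not searched. CCAAT on either strand, the letters bound by the factor NF-Y, was found in 8 of 12 mitotic windows (66.7%), 5 of 11 axonal transport windows (45.5%) and 37.4% of all windows. These matches describe letters only and were not tested for binding.

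The first comparison was of WT RGCs with WT non-RGCs, which asks how the motor set of the captured neurons differs from that of the rest of the retina. All 13 mitotic kinesins were lower in WT RGCs, by a median of -1.24 on the log2 scale, and 11 of 13 axonal transport kinesins were higher, by a median of 0.84. Over all members 23 were higher and 18 lower among the 57 that could be tested, where 26.4% of the 16502 genes tested were called higher and 22.6% lower and the median of all genes was -0.03. Without WT RGC library C, 13 mitotic kinesins were lower (median -1.53) and 11 axonal transport kinesins higher (median 0.93). Members called then numbered 24 higher and 18 lower, beside 27.7% and 23.2% of all genes. In 13 of 13 mitotic kinesins each of the 3 WT RGC libraries was below each of the 3 WT non-RGC libraries, which was so for 27.8% of all genes. In bulk libraries fewer cells of a type and less RNA per cell cannot be told apart.

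**Figure D1:**
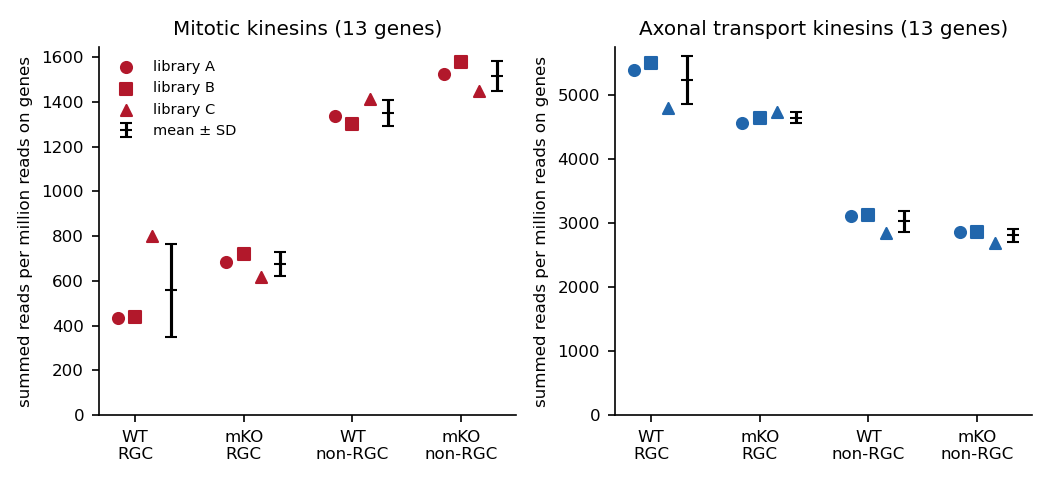
Summed RPM, reads scaled to a common library total (y axis, from 0) of 13 mitotic kinesins (left) and 13 axonal transport kinesins (right) in each library of the 4 groups, with the mean ± SD of the 3 libraries in black. Mitotic sums in RGC libraries lie between 435 and 800 and those in non-RGC libraries between 1301 and 1580, and WT RGC library C is the highest of the RGC libraries.

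The 13 mitotic kinesins together took 435, 437 and 800 RPM in WT RGC, 684, 723 and 619 in mKO RGC, 1339, 1301 and 1412 in WT non-RGC and 1526, 1580 and 1448 in mKO non-RGC. The highest RGC library was thus below the lowest non-RGC library. The axonal transport sums ran the other way, at 5387, 5504 and 4804 in WT RGC, 4564, 4647 and 4737 in mKO RGC, 3117, 3119 and 2841 in WT non-RGC and 2865, 2864 and 2690 in mKO non-RGC. The ratio of axonal to mitotic reads was 12.4, 12.6 and 6.01 in WT RGC, 6.67, 6.43 and 7.65 in mKO RGC, 2.33, 2.40 and 2.01 in WT non-RGC and 1.88, 1.81 and 1.86 in mKO non-RGC. Libraries A and B of WT RGC had the highest ratios, and library C fell below all 3 mKO RGC libraries.

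Among motors that build the spindle, Kif11 (chr19:37376403-37421859, plus strand, GRCm38), which slides antiparallel microtubules apart to make the spindle bipolar, had read counts normalised over all 12 libraries of 889, 900 and 1582 in WT RGC and 2432, 2441 and 2952 in WT non-RGC. Every RGC library was below every non-RGC library, and the difference was 2.40-fold (log2 -1.26 ± 0.18 SE, adjusted p = 8.4e-05, limma). Kif15, which helps to keep the spindle bipolar, was 2.33-fold lower, and Kifc1, a minus-end motor that focuses spindle poles, was 2.31-fold lower. Kifc5b is a near copy of Kifc1, so reads may be split between them. Its fold was 2.38.

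Motors of chromosome movement were lower by similar amounts. Kif4 and Kif22, which bind chromosome arms, were 2.57-fold and 2.15-fold lower in RGCs. Kif18a, which dampens the swings of aligned chromosomes, was 2.61-fold lower, Kif18b, which trims astral microtubules, 2.43-fold, and Kif2c, a microtubule depolymerase at centromeres, 2.37-fold. Of the motors of cytokinesis, Kif14 had the largest difference of the 13, with 226, 294 and 487 reads in WT RGC and 922, 901 and 1017 in WT non-RGC (log2 -1.57 ± 0.23, adjusted p = 9.5e-05). Kif23, a subunit of centralspindlin, was 2.32-fold lower, Kif20a 2.25-fold and Kif20b 2.19-fold. The 95% intervals of the 13 differences overlapped one another, so their order is not resolved.

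**Figure D2:**
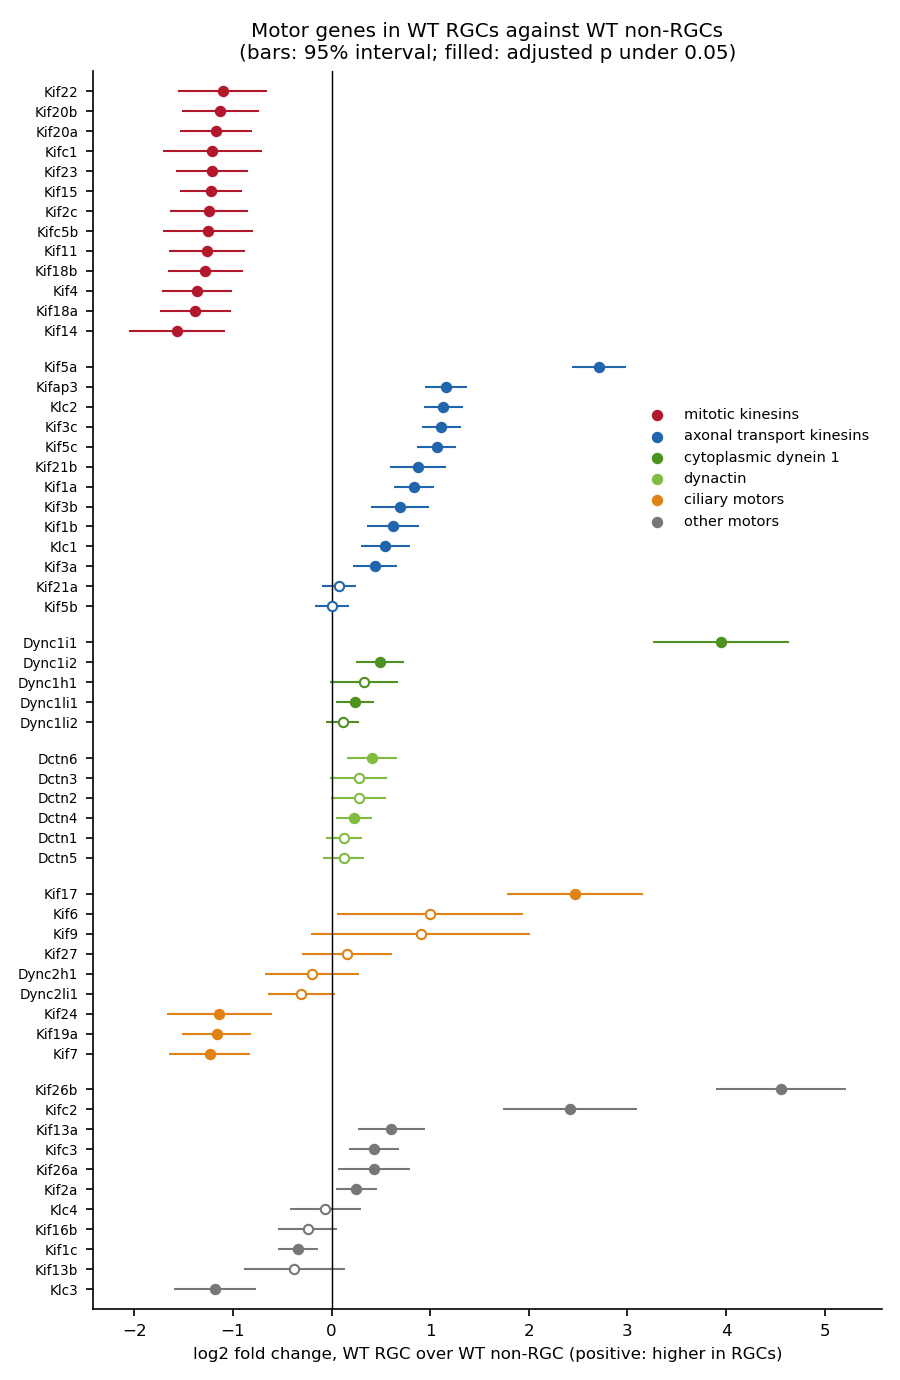
Log2 fold change of WT RGC over WT non-RGC (x axis) for the 57 members tested, grouped and coloured by role, with 95% intervals and filled points where the adjusted p was under 0.05. The mitotic kinesins form a block between -1.57 and -1.11, and the axonal transport kinesins lie between 0.00 and 2.71.

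The axonal transport kinesins varied more among themselves. Kif5a (chr10:127225696-127263348, minus strand), the heavy chain of kinesin-1 that is mainly neuronal, had 8784, 9036 and 6951 reads in WT RGC and 1411, 1202 and 1155 in WT non-RGC, a 6.55-fold difference (log2 2.71 ± 0.13, adjusted p = 5.3e-09). Its paralog Kif5c was 2.09-fold higher in RGCs. Kif5b, the kinesin-1 heavy chain found in most tissues, had 2326, 2432 and 2169 reads in WT RGC and 2176, 2255 and 2477 in WT non-RGC. These libraries overlapped, and the interval of the difference ran from -0.17 to 0.18 on the log2 scale. The 3 heavy chains of 1 motor thus stood at different sizes of difference in the same libraries.

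Of the light chains that link kinesin-1 to cargo, Klc2 was 2.19-fold and Klc1 1.46-fold higher in RGCs. Kif1a, the kinesin-3 that carries synaptic vesicle precursors, had 9710, 10036 and 8178 reads in WT RGC and 5302, 5235 and 5021 in WT non-RGC (1.79-fold), and Kif1b, which carries mitochondria and vesicles, was 1.54-fold higher. In kinesin-2, the partner subunit Kif3c was 2.16-fold higher, the adaptor Kifap3 2.24-fold, Kif3b 1.61-fold and Kif3a, which also serves cilia, 1.36-fold. Kif21b, a kinesin of neurites that slows microtubule growth, was 1.83-fold higher, while its paralog Kif21a had an interval from -0.10 to 0.25.

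Levels could be compared between genes as reads per kilobase of exon, on the counts normalised over all libraries. In WT RGC the highest were Kif5a at 1181 ± 163 (SD, n = 3), Klc1 at 1044 ± 13.8, Kif1a at 998 ± 106, Kif5c at 967 ± 121 and Kifap3 at 819 ± 99.3, and the libraries of each overlapped those of the next in that order. The mitotic kinesins ranged from 31.9 ± 8.92 for Kif18a to 151 ± 53.2 for Kif11. In WT non-RGC the order was led by Klc1 at 715 ± 6.29 and the dynactin subunits Dctn1 at 610 ± 12.7 and Dctn3 at 581 ± 9.27, none of which overlapped the next. There Kif11 stood at 350 ± 39.9, above Kif5a at 180 ± 19.5. Duplicate reads of single-end libraries had been removed, which lowers the most abundant genes most.

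Dynein and dynactin differed less. Dync1h1, the heavy chain with the motor domain, had 10268, 13091 and 8642 reads in WT RGC and 7633, 7890 and 9694 in WT non-RGC, which overlapped (log2 0.33, interval -0.01 to 0.67). Dync1i1, an intermediate chain found mainly in neurons, was the exception with 262, 273 and 114 reads in WT RGC and 11.0, 16.8 and 9.70 in WT non-RGC, a 15.4-fold difference (log2 3.95 ± 0.32, adjusted p = 5.9e-07). Its paralog Dync1i2, found in most cells, was 1.41-fold higher, and Dync1li1, a light intermediate chain that binds cargo adaptors, 1.18-fold. Of 6 dynactin subunits, Dctn6 and Dctn4 were higher, by 1.33-fold and 1.17-fold, and Dctn1, the large subunit that contacts microtubules, had an interval from -0.05 to 0.31. The calls of Dctn4 and Dync1li1 were near the threshold (limma adjusted p = 0.043 and 0.042) and were lost without WT RGC library A or B, among others.

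Motors of cilia split by gene. Kif17, a kinesin-2 of cilia and dendrites, had 117, 115 and 85.5 reads in WT RGC and 17.4, 10.8 and 31.2 in WT non-RGC (5.53-fold higher, adjusted p = 3.8e-05). Kif7, which works in hedgehog signalling at the ciliary tip, Kif24, which acts at centrioles, and Kif19a, which limits the length of cilia, were 2.36-fold, 2.20-fold and 2.24-fold lower in RGCs. The intervals of Dync2h1 and Dync2li1, the heavy and light intermediate chains of the dynein of intraflagellar transport, included 0.

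Among the remaining members, Kif26b (chr1:178529125-178939200, plus strand), a kinesin-11 linked to cell adhesion and polarity, had the largest difference of all 57 members, with 893, 1040 and 494 reads in WT RGC and 23.8, 30.6 and 44.2 in WT non-RGC (23.5-fold, adjusted p = 1.1e-07). Kifc2, a minus-end motor of neurons, was 5.34-fold higher, Kif13a, an endosome motor, 1.52-fold, Kifc3 1.35-fold, Kif26a 1.34-fold and Kif2a, a depolymerase that trims neurites, 1.19-fold. Of these, Kif26a and Kif2a were near the threshold (limma adjusted p = 0.0499 and 0.046) and reached 0.195 and 0.196 without single libraries, while Kifc3 reached 0.073 and Kif26a 0.25 with the GC trend of each library removed. Klc3 was 2.26-fold lower and Kif1c 1.27-fold lower, the latter with an adjusted p of 0.0504 without WT non-RGC library B. WT RGC library C was the lowest of the WT RGC libraries in Kif26b, Dync1i1, Kif5a and Kif17 and the highest in every mitotic kinesin. Kif12 had at most 3.76 normalised reads in any library and Kif2b was listed at 0 in all 12, so both were left out of the tests.

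The same contrast was made in mKO retinas, with other libraries but in the same fit as WT, with a spread shared by all groups. Its SE and p-values are thus not independent of those in WT. All 13 mitotic kinesins were again lower in RGCs (median -1.07) and 10 of 13 axonal transport kinesins higher (median 0.91). Over all members 20 were higher and 19 lower, beside 29.1% and 25.4% of all genes. Kif11 had 1421, 1456 and 1251 reads in mKO RGC and 2492, 2482 and 2286 in mKO non-RGC (1.76-fold lower, adjusted p = 0.002), and Kif5a had 5802, 5912 and 6125 against 1322, 1459 and 1074 (4.66-fold higher, adjusted p = 4.5e-08). The groups did not overlap in either gene. Over all genes, every mKO RGC library was above every mKO non-RGC library in 33.8% and below in 32.6%. Kif21a was higher here, by 1.19-fold (adjusted p = 0.017), and Klc1, Kif3a and Kif5b were not called (adjusted p = 0.081, 0.093 and 0.23). The partners of the spindle motors, 14 genes led in WT by Hmmr, Aurka and Anln, were lower in RGCs in 14 of 14 cases in both genotypes. In WT the differences on the log2 scale were -1.25 for Aurka and -1.24 for Anln.

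Genes that serve the transport motors were less uniform. Of 14 kinesin adaptors, 9 were higher in WT RGCs, led by Sybu (log2 1.47), Fez2 (1.15) and Arl8a (0.89), and Trak2, an adaptor for mitochondria, was lower (-0.64). Of 13 dynein regulators, Rilp (1.70), Bicd1 (0.81) and Ndel1 (0.62) led 6 that were higher, while Spdl1 (-1.40) and Nde1 (-1.11), which also act at kinetochores, and Hook1 (-0.59) were lower. Of 9 dynein light chains, Dynlt1a was higher (0.58), with near copies that can share its reads, and Dynlrb2 lower (-1.60). Markers of cycling progenitors moved with the mitotic kinesins: 11 of 12 were lower in WT RGCs, and they summed to 1247, 1311 and 2106 RPM in WT RGC and 2670, 2670 and 3140 in WT non-RGC. Photoreceptor markers were lower in 7 of 8 cases. The part of cell mixture in these differences was not tested.

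The second comparison asked what differed between mKO and WT RGCs, and it shares its WT RGC libraries with the comparison of the WT fractions. Here 5 members were higher and 18 lower, beside 16.3% of the 16085 genes tested called higher and 21.2% lower. Of the axonal transport kinesins 7 of 13 were lower and none higher, with a median of -0.28, where the median of all genes was 0.00. Of the mitotic kinesins, Kif20b and Kif18a were higher and 11 were not called, with a median of 0.20. Of dynein 1 and dynactin, 5 of 11 subunits were lower.

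**Figure D3:**
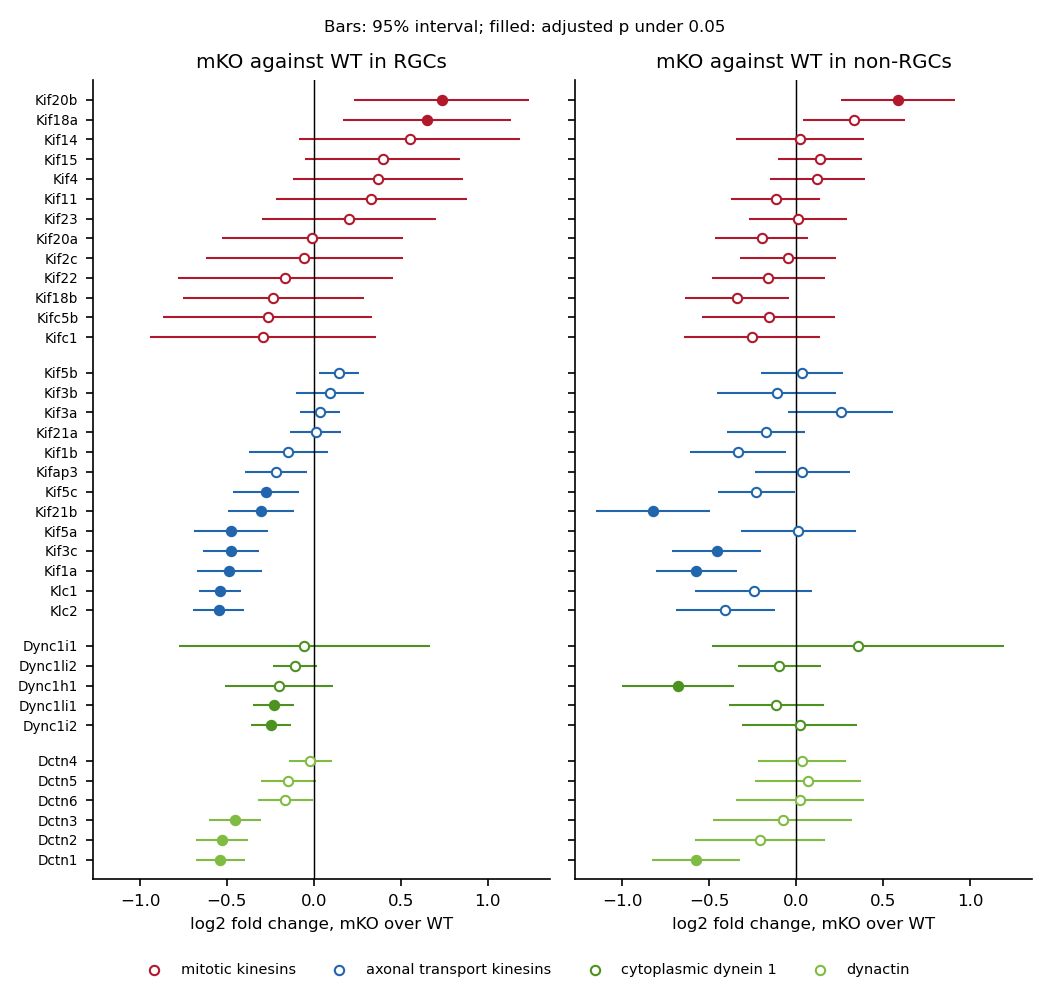
Log2 fold change of mKO over WT (x axis) in RGCs (left) and non-RGCs (right) for mitotic kinesins, axonal transport kinesins, dynein 1 and dynactin, with 95% intervals and filled points where the adjusted p was under 0.05. In RGCs, 12 of the 24 transport genes are filled and negative, and 2 mitotic kinesins are filled and positive.

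Klc1, a light chain of kinesin-1, had normalised read counts within the RGC table of 4301, 4371 and 4487 in WT and 2898, 3062 and 3096 in mKO, so every mKO library was below every WT library (31.2% lower, adjusted p = 7.2e-04, limma). Klc2 had 2889, 2780 and 2652 in WT and 1775, 1953 and 1965 in mKO, a drop of 31.6% (adjusted p = 0.0011). The heavy chain Kif5a had 8957, 9155 and 7398 in WT and 5882, 6049 and 6324 in mKO (28.2% lower, adjusted p = 0.0066). These groups did not overlap. Over all genes tested, 28.2% had every mKO RGC library below every WT RGC library. Kif1a was 28.7% lower, Kif3c 28.2%, Kif21b 19.1% and Kif5c 17.4%. Kif5b, Kif3a, Kif3b and Kif21a had log2 values of 0.14, 0.03, 0.09 and 0.01, and Kif1b and Kifap3 of -0.15 and -0.22, none of them called.

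Dctn1 had 4467, 4403 and 4535 reads in WT RGC and 2875, 3120 and 3241 in mKO RGC (31.2% lower, adjusted p = 9.5e-04). Dctn2, the subunit that joins the shoulder of dynactin, was 30.7% lower and Dctn3, a small subunit of that shoulder, 27.0%. Dync1i2 and Dync1li1 were 15.8% and 14.9% lower, and Dync1h1 and Dync1i1 had intervals from -0.51 to 0.11 and from -0.78 to 0.67. Of the other members, Dync2h1 had 701, 942 and 776 reads in WT and 1308, 1203 and 1507 in mKO (1.67-fold higher, adjusted p = 0.0047). Kif27, a kinesin of motile cilia, was 1.57-fold higher and Kif16b, an endosome motor, 1.28-fold. Klc3 and Kif19a were 42.3% and 40.4% lower, and Kif1c, Kif26a, Klc4 and Kifc3 between 17.3% and 23.0% lower.

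**Figure D4:**
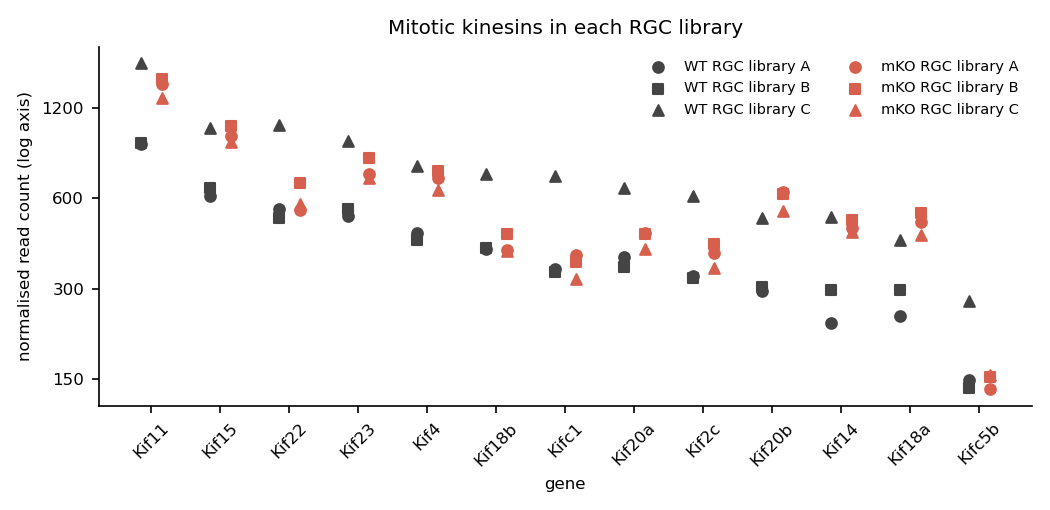
Normalised read count (y axis, log scale) of each mitotic kinesin in the 3 WT RGC libraries (grey) and the 3 mKO RGC libraries (red), with a marker shape for each library. WT RGC library C (grey triangles) lies above WT libraries A and B in all 13 genes.

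The mitotic result depended on WT RGC library C. Kif20b, which acts in cytokinesis, had 294, 304 and 516 reads in WT RGC and 631, 622 and 544 in mKO RGC (1.66-fold higher, adjusted p = 0.033), and Kif18a had 243, 296 and 437 against 501, 536 and 454 (1.57-fold, adjusted p = 0.043). Kif11 had 906, 912 and 1684 in WT and 1440, 1490 and 1291 in mKO. In Kif11 the WT libraries lay on both sides of all mKO libraries (log2 0.33, interval -0.22 to 0.88). Leaving out library C, which was the highest WT RGC library in every mitotic kinesin, raises mKO over WT in these genes by construction. It was set apart above by markers of cycling progenitors, and libraries A and B alone then stand for WT RGC. Without library C, 8 mitotic kinesins were called higher, with a median of 0.46, and 9 axonal transport kinesins lower. The 8 were Kif11, Kif14, Kif15, Kif18a, Kif20a, Kif20b, Kif23 and Kif4. Members called higher then numbered 13 and those called lower 24, beside 23.1% and 27.6% of all genes. Without any other RGC library no mitotic kinesin was called. Members called higher numbered 1 without mKO RGC library A or C, 2 without mKO RGC library B and 3 without WT RGC library A or B, and those called lower ranged from 11 without mKO RGC library A to 15 without WT RGC library B. Calls over all genes fell too, to between 8.93% and 13.0% higher and between 14.3% and 18.5% lower. With every library they were 16.3% and 21.2%. Dync2h1 and 11 members called lower, among them Kif1a, Kif3c, Kif5a, Klc1, Klc2, Dctn1, Dctn2 and Dctn3, were called without each library in turn.

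The changes also followed the base composition of the genes. Over the 57 members the Spearman correlation of the mKO log2 fold change with the GC content of the exons was -0.68 in RGCs and -0.66 in non-RGCs, as a description of genes that share the same libraries, and over 12148 well-expressed genes it was -0.71 in RGCs. Kif18a and Kif20b, the mitotic kinesins called higher, have the lowest GC content of their list (38.2% and 39.4%), and Klc2 the highest of the axonal list (60.4%). With each library's trend with GC content removed, 3 members were higher and 9 lower in RGCs, beside 6.47% and 9.62% of all genes. The 3 higher were Dync2h1, Kif27 and Kif26a, the last of which was called lower before the removal. No mitotic kinesin was then called, and the axonal transport kinesins called lower were Kif3c, Kif5c, Kifap3 and Klc1. Under a joint removal, which also took out the dependence on reads per exon base, 1 member was higher (Kif3a) and 3 lower (Dctn2, Dctn4 and Dync1i2). Over all genes, 3.08% were then called higher and 5.27% lower, so these member counts did not stand out. Only Dctn2 and Dync1i2 of the 23 members called in RGCs were called in the same direction under both removals, at adjusted p of 0.016 and 0.0097 under the second. Without WT RGC library C, 12 mitotic kinesins were called higher after removal of the GC trend and 6 after joint removal. These settings were chosen after seeing the data. The axonal transport kinesins called lower then numbered 8 and 1, with 3 called higher in the second case. Over all genes, 15.4% were called higher and 17.5% lower in the first case, and 10.9% and 13.1% in the second. For the differences between RGCs and non-RGCs the correlation over the members was 0.22 in WT and 0.15 in mKO, and that over genes 0.11 and -0.01.

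**Figure D5:**
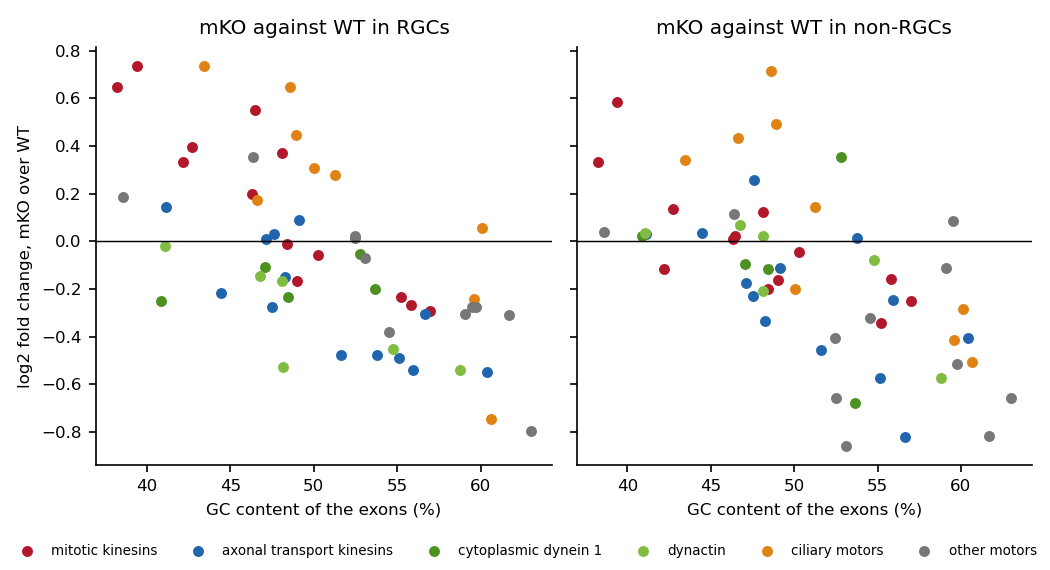
Log2 fold change of mKO over WT (y axis) against the GC content of the exons (x axis, %) of the 57 members tested, in RGCs (left) and non-RGCs (right), coloured by role. Members of low GC content lie mostly above 0 and those of high GC content mostly below it in both fractions, with Spearman correlations of -0.68 and -0.66.

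In the other genes of the pathway, 7 of 14 kinesin adaptors were lower in mKO RGCs, led by Mapk8ip1 (log2 -0.72), Clstn1 (-0.70) and Arl8a (-0.43), and none was higher. Of the dynein regulators, Bicd1 (0.87) and Hook3 (0.78) were higher and 5 were lower, including Actr1b (-0.59) and Actr1a (-0.53), which form the dynactin filament, and Ndel1 (-0.25). Of the light chains Dynlt3 (0.51) was higher, and Dynll2 (-0.53), Dynlrb1 (-0.45) and Dynll1 (-0.34) were lower. Of the spindle partners Cenpe (0.71), itself a kinetochore kinesin, was higher and 13 were not called. Markers moved in the same libraries: the 12 RGC markers summed to 2719, 2766 and 2619 RPM in WT RGC and 2059, 2130 and 2102 in mKO RGC, and 4 of the 12 markers of cycling progenitors were lower and none higher. Of 8 photoreceptor and 8 amacrine markers, 5 each were lower, as were 2 of 7 astrocyte or Müller glia markers and 1 of 6 endothelial markers, and 4 of 8 microglia and blood markers were higher, with sums of 188, 139 and 93.9 RPM in mKO RGC and 122, 166 and 163 in WT RGC. The part of these in the motor results was not tested.

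The third comparison was of mKO with WT non-RGCs. Here 1 member was higher and 7 were lower, beside 4.18% of the 15326 genes tested called higher and 6.43% lower. Kif20b had 841, 725 and 681 reads in WT and 1262, 1150 and 967 in mKO (log2 0.59, adjusted p = 0.036). The 7 lower were Kif21b (43.4% lower, adjusted p = 0.013), Kif26a (43.1%), Dync1h1 (37.6%), Klc3 (36.7%), Dctn1 (32.8%), Kif1a (32.8%) and Kif3c (27.2%). In Kif21b the counts were 3271, 3432 and 3171 in WT and 2145, 2033 and 1476 in mKO, with no overlap. Over all genes, 19.2% had every mKO library below every WT library. The mitotic kinesins had a median of -0.05, and 12 of 13 were not called. No call held without each library in turn, and none was left without mKO non-RGC library B or without WT non-RGC library B. Of all genes, 0.313% and 1.08% were called higher without these libraries, and 0.607% and 1.44% lower. The count of lower members was 4 without WT non-RGC library A (3.1% of all genes) and 9 without WT non-RGC library C (5.79%). It was 0 with the GC trend removed (0.685% of all genes) and with both trends removed (0.894%). Kif20b was called without mKO non-RGC library C alone of the 6. RGC markers summed to 608, 730 and 814 RPM in mKO non-RGC and 514, 539 and 513 in WT non-RGC. Microglia and blood markers, 4 of the 6 tested being higher, summed to 64.3, 62.6 and 80.0 RPM in mKO and 22.4, 29.0 and 13.1 in WT. Lower calls were made for 4 of 8 photoreceptor markers, 2 of 8 amacrine markers and 1 marker each of cycling progenitors, astrocytes or Müller glia, and endothelium. The part of these markers in the motor values was not tested.

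Members called in RGCs and in non-RGCs overlapped in 1 of the 5 and 1 that were higher (Kif20b) and in 6 of the 18 and 7 that were lower (Dctn1, Kif1a, Kif21b, Kif26a, Kif3c and Klc3). Of these, Kif26a was called higher in RGCs once the GC trend was removed. Over the 14894 genes tested in both, the genes called in both were 16.3% of the RGC calls and 66.3% of the non-RGC calls among higher genes, and 22.6% and 77.9% among lower genes. Of the other genes of the pathway, Dynlt3 was higher in non-RGCs (0.54), and Clstn1 (-0.64), Mapk8ip1 (-0.57), Trak2 (-0.57), Numa1 (-0.57), Actr1b (-0.45) and Bicd2 (-0.43) were among 9 that were lower. When the mKO effect in RGCs was tested against that in non-RGCs in 1 model, none of the 57 members was called, beside 0% of all genes called higher and 0.097% lower, and limma voom called none either. At an unadjusted p under 0.05, which some genes without a difference also pass, there were 2 of the 57. These were Kif21b, whose log2 change in RGCs exceeded that in non-RGCs by 0.52 (interval 0.11 to 0.92), and Kif5a, where it was lower by -0.49 (interval -0.88 to -0.10), with adjusted p of 0.52 and 0.53 in limma. Both intervals are unadjusted and exclude 0 by that same threshold, and the share of all genes that pass it was not counted. With 3 libraries a group, neither difference passed the adjustment over the 16502 genes tested.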

How the data were processed

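RNA was poly-A selected and sequenced from single ends, and the authors aligned reads to mm10 with STAR 2.3.1z4 and counted them per gene with featureCounts on primary alignments after duplicates were removed. The deposited signal values are means over the 3 libraries of a group of counts divided by size factors. Columns with the authors' fold changes and p-values were not used. Whole reads of each library were recovered from the digits of these means, with a single solution for every gene (100%). Library letters carry no replicate number, and p-values measure only the spread between these libraries. Log2(normalised reads + 1) was tested with limma 3.58.1 (trend) in R 4.3.3 for genes whose mean reached 10 in a group, with Benjamini-Hochberg adjustment over all genes tested and a threshold of 0.05. The mKO comparisons used the deposited scaling, and comparisons across fractions used size factors recomputed over the 12 libraries, because the tables were normalised separately. The comparisons across fractions came from the same fit of the 12 libraries, with a spread shared by all groups. An exact permutation test of 3 against 3 libraries cannot go below 0.1. SE, 95% intervals and fold changes are on the log2(value + 1) scale, and counts are after removal of duplicates. The fits were tested on simulated counts with the same small dispersion in every gene. These held no GC trend and no library set apart like WT RGC library C, so that test does not cover those features. Members and lists were chosen with earlier results of these data known. The text names Ezh2, Thy1, a preset set of motors, members called in a comparison (up to 12 a direction) and up to 3 called genes a direction of each pathway list. The alternatives were a pseudocount of 0.5, every gene with reads, upper quartile scaling, limma voom and unadjusted p with a fold of 1.5. Each library was also left out in turn. The lowess trend of each library with GC content was removed in a further alternative. In a separate one, GC and reads per base were taken out jointly, from 300 neighbouring genes, in place of the lowess. Gene positions are from GENCODE M21 on GRCm38.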

Additional observations from a re-analysis of the deposited data

How the results depend on the processing

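No paired analysis was possible because the recovered libraries carry no replicate number. In both genotypes all 13 mitotic kinesins were lower in RGCs under every alternative, and no member called in a comparison of RGCs with non-RGCs changed sign in it. Uncalled members with small differences did (Kif5b, Klc4 and Kif27 in WT, and Kif27, Dctn2, Dctn3, Dctn5, Dync2h1, Kif13b and Kif16b in mKO). The 23 members higher in WT RGCs became 15 with a fold of at least 1.5 and an unadjusted p, and the difference of the mKO effect between fractions gave no call under any alternative. The mKO counts moved more. In RGCs the 5 higher members became 3 with the GC trend removed, 1 with both trends removed and 1 to 21 without single libraries, where the highest count joins the loss of WT RGC library C with removal of the GC trend (11 with both trends). The 18 lower members became 9, 3 and 8 to 24, and 2 with a fold of at least 1.5. Other genes of the pathway in RGCs went from 4 higher to 0, 0 and 2 to 11, and from 15 lower to 3 with both trends removed, 3 with the fold and 8 to 19 without single libraries. In non-RGCs the 1 higher member became 0, 0, 0 to 2 and 2 with the fold, and the 7 lower members 0, 0 and 0 to 9. The 1 higher gene of the pathway there became 0 with every gene tested, 2 with upper quartile scaling or voom, 0 with either removal, 0 with the fold and 0 to 3 without single libraries, and the 9 lower became 1, 0, 1 with the fold and 0 to 9.

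Values called as reported or under the alternative changed sign in mKO against WT RGCs and in no other comparison. Uncalled values changed sign in each comparison, in non-RGCs in 33 of 342 values without 1 library and 30 of 399 under the other alternatives. With the GC trend removed, Kif26a turned from called lower to called higher (log2 0.27, limma adjusted p = 0.031). The log2 values were then 0.058 for Kif21b, 0.22 for Kifc3 and 0.16 for Klc4, none of them called. With both trends removed they were 0.038 for Kif1a, 0.17 for Kif21b, 0.068 for Kif5c, 0.028 for Dctn3, 0.031 for Dctn1, 0.026 for Kif5a, 0.12 for Kifc3, 0.025 for Dync1li1, 0.16 for Kif26a, 0.20 for Klc4 and 0.056 for Klc2. Over the values without single libraries, which here include the loss of WT RGC library C alone and with either removal, the log2 values ranged from -0.58 to 0.039 for Dctn1, -0.48 to 0.028 for Dctn3, -0.37 to 0.32 for Kif18b, -0.17 to 0.26 for Kif20a, -0.38 to 0.089 for Kif21b, -0.36 to 0.28 for Kif26a, -0.34 to 0.24 for Kif2a, -0.21 to 0.31 for Kif2c, -0.23 to 0.17 for Kif5b, -0.36 to 0.46 for Kif7, -0.47 to 0.41 for Kifc1, -0.32 to 0.16 for Kifc3, -0.44 to 0.35 for Kifc5b, -0.56 to 0.011 for Klc1, -0.58 to 0.015 for Klc2, -0.94 to 0.10 for Klc3 and -0.39 to 0.28 for Klc4. The removals without library C were chosen after seeing the data, and the cause was not tested. Over single members in mKO against WT RGCs, 285 of the 342 values without 1 library kept their side of the threshold, 42 lost the call and 14 gained one, and 24 changed sign, of which 1 had a call (Kif20a without WT RGC library C). With 3 libraries a group, changes of the size of the mitotic intervals in RGCs were not resolved, and Kif12 and Kif2b had too few reads to test.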
